A study of Mus musculus with 4 samples.

Results

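The genes for the proteins of the cytosolic ribosome were examined in splenic CD4 T cells of wild-type C57BL/6 mice that carried either a control retrovirus (EV RV) or a retrovirus encoding *Tox* (Tox RV). Members were the genes whose symbol is Rpl or Rps followed by a number, with a final a, x or l allowed, together with *Rplp0*, *Rplp1*, *Rplp2* and *Rpsa*. Of 24369 genes listed, 81 matched, and 79 had an expected count of at least 10 in at least 2 libraries, 47 of the large subunit and 32 of the small subunit. The 2 that did not were *Rpl3l*, with expected counts of 11.9 and 8.01 in EV RV against 1.00 and 6.21 in Tox RV, and *Rpl10l*, with 2.04 and 4 against 2 and 31.0. Both are paralogs known from other tissues, heart and skeletal muscle for *Rpl3l* and testis for *Rpl10l*. The symbol rule leaves out ribosomal protein genes with other names, among them *Fau*, *Gnb2l1* and *Rps3a1*, which are described separately near the end.

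Naïve cells in both groups were activated without polarizing cytokines, with anti-CD3, anti-CD28 and recombinant human IL-2, transduced on day 2, stimulated again through CD3 on day 5 and sorted for GFP. For this second stimulation the study's methods give biotinylated anti-CD3 with streptavidin over 5 hours, and its results name anti-CD3 and anti-CD28. The control vector was MSCV-IRES-eGFP and the other vector carried *Tox* in front of the same IRES-eGFP cassette, so that Tox was driven by the retroviral promoter. Each group had 2 libraries, which the study describes as 2 mice per group, and the labels do not say whether the groups shared mice. The age of the mice used for RNA-seq was not given in the sources used here. The comparison asks how the transcript level of each member in Tox RV cells compared with that in EV RV cells.

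A ribosome is built from a small subunit, which reads the mRNA, and a large subunit, which forms the peptide bonds, and each protein is usually present as a single copy per ribosome. Naïve T cells hold few ribosomes, and activation through the antigen receptor raises ribosome production as the cells grow and divide. Most ribosomal protein mRNAs begin with a 5′ terminal oligopyrimidine (TOP) tract, a run of C and T in the DNA that starts at a C, through which mTORC1 and the RNA-binding protein LARP1 control their translation. Many of the genes also carry small nucleolar RNAs (snoRNAs), which guide the modification of ribosomal RNA, in their introns.

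The TOP tract is the feature most of these genes are known for, and the annotated DNA was examined for it in the 30 bases around their annotated start sites. The windows below run 5′ to 3′ on the gene's strand from 15 bases before the start, were taken from RefSeq on GRCm38.p6, and have their longest run of C and T in capitals. They are shown for 3 of the members with the largest differences between the groups, for *Rps6*, whose protein is the substrate of S6 kinase, and for 3 members with long tracts.
Rpl35, chr2:39005117-39005146, minus strand: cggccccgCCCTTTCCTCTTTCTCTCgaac
Rps27, chr3:90213634-90213663, minus strand: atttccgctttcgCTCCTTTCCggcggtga
Rpl5, chr5:107900513-107900542, plus strand: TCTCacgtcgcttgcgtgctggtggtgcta
Rps6, chr4:86857353-86857382, minus strand: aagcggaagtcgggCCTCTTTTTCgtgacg
Rpl7a, chr2:26910792-26910821, plus strand: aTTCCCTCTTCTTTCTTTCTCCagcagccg
Rpl27a, chr7:109519180-109519209, plus strand: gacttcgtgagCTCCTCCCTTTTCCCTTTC
Rpl15, chr14:18270972-18271001, minus strand: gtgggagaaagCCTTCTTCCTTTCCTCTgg
The longest run was 21 bases in *Rpl7a*, 18 in *Rpl35* and 4 in *Rpl5*, so the length of the run near the annotated start varied widely among members, including those with the largest differences between the groups.

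Promoter sequence was matched for 58 of the 79 members. A run of at least 8 bases of C or T on the gene's strand, between 30 bases before and 50 after the start, was present in 81.0% of these and in 30.5% of 10570 other tested genes with a promoter. The letters CTTTCC or CTCTTT, which overlap such runs, were found in the same window in 29 of 58 members and 6.62% of the others. The letters CCGGAAG, the core bound by ETS factors, occurred on either strand, from 250 bases before to 50 after the start, in 43.1% of members and 18.8% of the others. TATAAA between 40 and 15 bases before the start was in 0 of 58 members and in 1.51% of the others. These are letter matches and not measured binding.

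*Tox* itself was at 11.7 and 5.73 CPM in EV RV against 121 and 99.9 in Tox RV, in the direction of the labels. CPM are counts scaled to library size with TMM factors. The log2 fold change of *Tox* was 3.68 (SE 0.38), with an adjusted p of 0.49 from edgeR (quasi-likelihood test, Benjamini-Hochberg). That was the smallest adjusted p of all genes tested, so even *Tox* did not pass the test after adjustment. Total expected counts ranged from 46989997 to 74548723 per library. EV RV replicate 1 stood apart from the other libraries: on the first principal component of the tested genes, which held 58.0% of the variance, it lay at -53.8 and the others between 5.70 and 25.8. The 45S pre-ribosomal RNA gene *Rn45s* accounted for 24.7% and 11.97% of EV RV counts against 10.3% and 7.14% of Tox RV counts. All 7 CD4 T cell markers, *Cd4* and *Cd3e* among them, passed the low-count filter, with a summed level of 1445 to 2038 CPM in EV RV against 1734 to 1894 in Tox RV. Among markers of other cells, 2 of 2 for CD8 T cells passed with sums of 3.88 to 4.65 and 4.26 to 4.77 CPM, and 2 of 5 for B cells with 1.09 to 1.62 and 1.42 to 1.52. For myeloid cells 4 of 6 passed, with 4.46 to 4.78 and 3.99 to 5.44 CPM, and *Ms4a1*, *Pax5* and *Ncr1* had 0 counts in every library. For NK cells 4 of 5 passed, with 121 to 132 CPM in EV RV against 78.2 to 100.2 in Tox RV. *Eomes*, which T cells also express, made up 71.2 to 109 of these in single libraries, and in EV RV it was higher in replicate 2. *Klrk1* was at 36.6 and 10.5 CPM in EV RV against 17.2 and 4.86 in Tox RV, and *Klrd1* at 14.2 and 1.90 against 10.2 and 1.99. Both were higher in replicate 1 of each group, as was *Klrb1c*, which was at 1.09 CPM or less. The part of *Rn45s* and of these markers in the results was not tested.

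Ribosomal protein genes were among the most abundant transcripts of these cells. TPM, RSEM's share of transcripts, is scaled by transcript length and is used here for levels between genes. The 79 members together held 21.4% and 22.6% of all TPM in EV RV against 24.0% and 22.8% in Tox RV, and 66 of the 100 genes with the highest mean TPM were members. The Tox RV shares lay above both EV RV shares, with a gap of less than the spread within either group. The ratio of large-subunit to small-subunit TPM was 1.43 and 1.37 in EV RV against 1.39 and 1.39 in Tox RV, so the balance of the subunits overlapped between the groups. Such sums cannot tell a change in RNA per cell from a change in the mix of cells.

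Levels within the family spanned a wide range, although the proteins are used in near-equal numbers. Leaving aside *Rpl39l* and *Rps4l*, the mean TPM of a member ran from 317 to 6920 with a median of 2954, and 71 members were at 1000 TPM or more. *Rpl41*, the smallest of the proteins, was highest, at 6695 and 6850 TPM in EV RV against 7177 and 6958 in Tox RV. *Rps12*, of the head of the small subunit, followed at 5994 and 6747 against 7499 and 6822 TPM. *Rpl32*, *Rpl23a* and *Rps18* came next, with *Rpl32* at 4791 and 5889 TPM in EV RV against 6116 and 5704 in Tox RV, *Rpl23a* between 4744 and 5498 and *Rps18* between 4874 and 5189 over the 4 libraries. The ranges of *Rpl41* and *Rps12* overlapped, as did those of *Rpl32*, *Rpl23a* and *Rps18*, so these neighbours were not separated beyond their spread.

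At the low end stood *Rpl39l* and *Rps4l*, near the limit of what is counted. *Rpl39l*, a paralog best known from testis, was at 5.71 and 0.76 TPM in EV RV against 4.01 and 1.44 in Tox RV. *Rps4l*, which GENCODE annotates as a transcribed processed pseudogene, was at 2.60 and 2.00 against 3.31 and 0.91 TPM. For both, the replicates of a group differed more than the groups did. Next came *Rps15a* at 295 to 337 TPM, *Rpl22* at 316 to 360 and *Rps27l* at 276 to 443. *Rpl22* is required for the development of alpha-beta T cells. The *Rps15a* level was divided by a listed length of 5158 bases in every library, whereas the members' GENCODE transcripts had a median of 805 bases. In counts *Rps15a* was unremarkable at 884 to 1097 CPM.

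**Figure D1:**
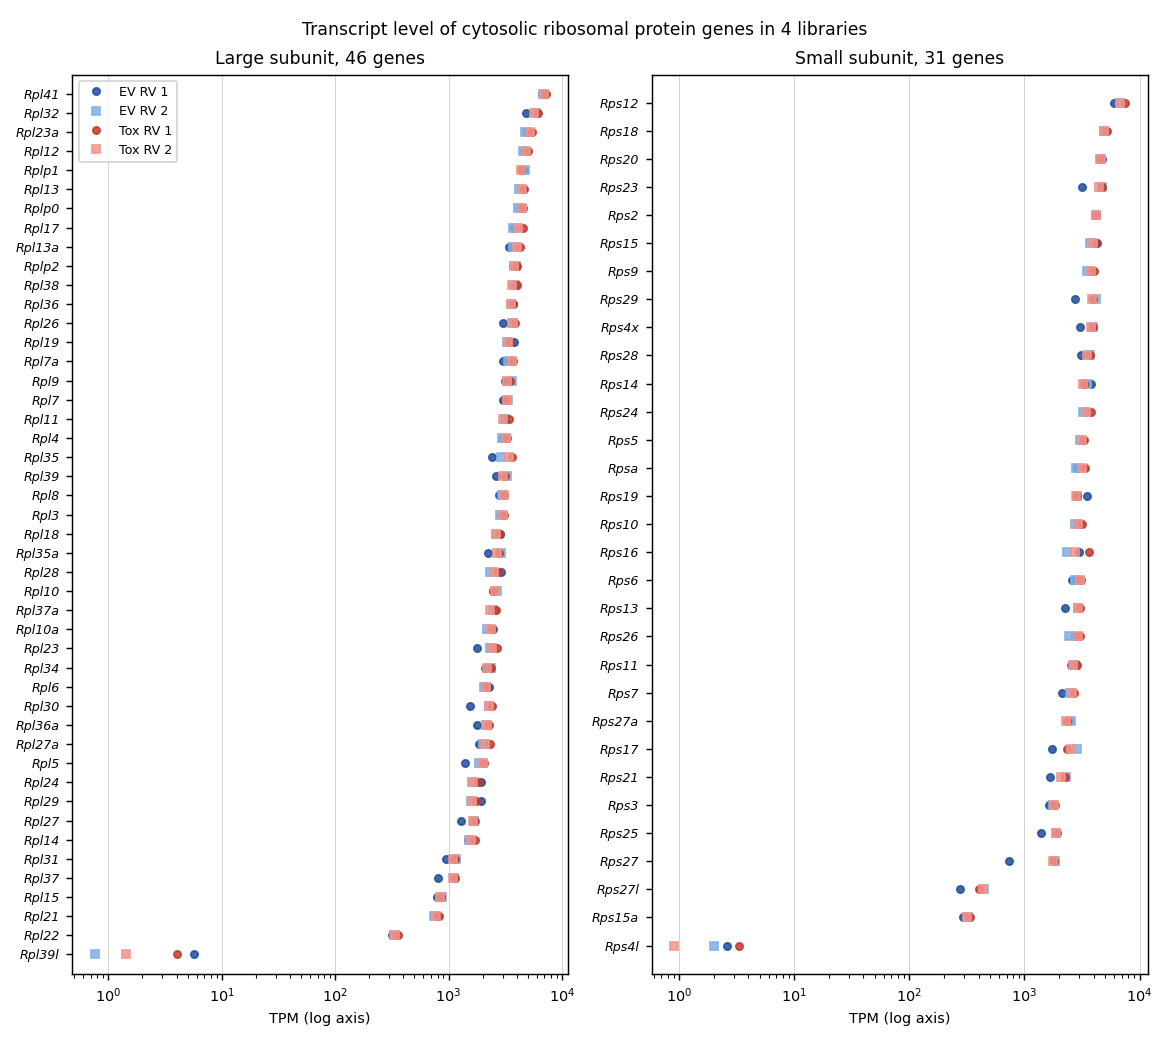
TPM of 77 of the 79 members (log axis) in the 2 EV RV libraries (blue) and 2 Tox RV libraries (red), ordered by mean level within each subunit. Of the 77 genes, 70 have a mean above 1000 TPM, *Rpl39l* and *Rps4l* lie below 10 TPM, and EV RV replicate 1 is the point farthest from the rest for *Rps27*.

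In these 4 libraries most ribosomal protein mRNAs had a small positive log2 fold change with Tox RV, and none passed the test after adjustment. The log2 fold change of Tox RV over EV RV was above 0 for 72 of the 79 members, while 50.4% of the 14143 genes tested had a positive value. With scaling by library totals 78 members and 64.4% of all genes were positive, with library totals without *Rn45s* 70 members and 45.03% of all genes, and with limma on log2(TPM + 1) 65 members and 40.01% of all genes. The median log2 fold change under TMM scaling was 0.17 among members, a 1.12-fold difference, and 0.00 among all genes tested. At an adjusted p below 0.05 from edgeR (quasi-likelihood test, Benjamini-Hochberg) there were 0 members, and the background was 0% of all genes. Since *Tox* did not pass either, failing this test does not show that a member was unchanged. DESeq2 also called 0 members, and 22 genes of the whole table. At an unadjusted p below 0.05 the only member was *Rpl35*, which was higher in Tox RV, where 1.07% of all genes were higher and 2.55% were lower at that threshold. The members' adjusted p-values were 0.897 or above, and the log2 fold change plus or minus 2 SE included 0 for 78 of 79.

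The libraries were also compared by their order. Both Tox RV values exceeded both EV RV values for 48 members, or 60.8%, where 18.6% of all genes did. The reverse order occurred for *Rps14* alone, where 17.4% of all genes had it, and for the other 30 members the groups overlapped. The large subunit had 44 of 47 positive values with a median of 0.14, and the small subunit 28 of 32 with a median of 0.19. All members were measured in the same 4 libraries, so these counts describe the family and are not a number of independent observations.

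**Figure D2:**
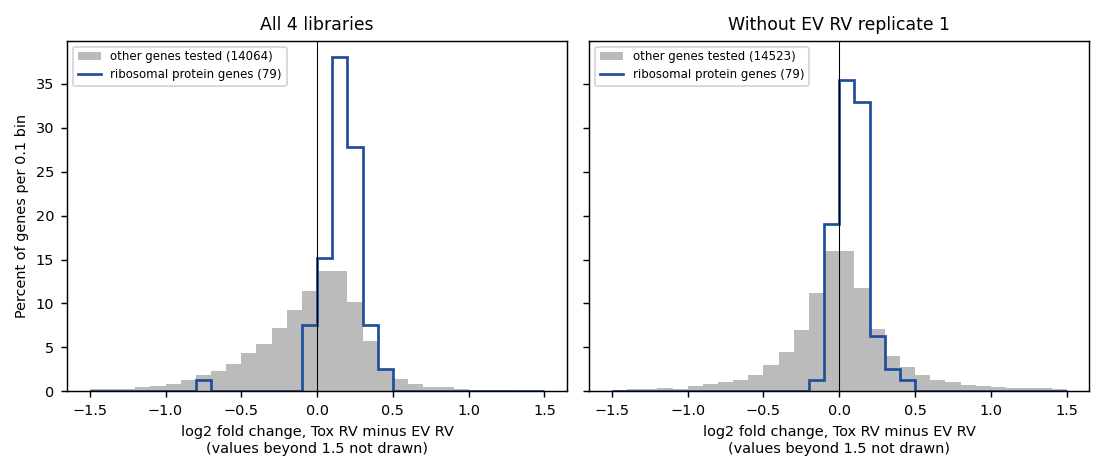
Distribution of the log2 fold change of Tox RV over EV RV in bins of 0.1, as a percent of the 79 members (blue outline) and of the other genes tested (grey), with all 4 libraries (left) and without EV RV replicate 1 (right). Most of the members' distribution lies to the right of 0 in both panels, with a median of 0.17 on the left and 0.09 on the right. Of the 79 members, 72 have a positive value with all 4 libraries and 63 without EV RV replicate 1.

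EV RV replicate 1 carried much of the difference. Of the 77 members other than *Rpl39l* and *Rps4l*, 59 had their lowest CPM in that library and 4 their highest. Tox RV replicate 1 was the highest library for 63. The median absolute log2 difference between replicates was 0.18 in EV RV against 0.07 in Tox RV, beside a median absolute log2 fold change of 0.18. Over all genes tested these medians were 0.38, 0.17 and 0.21, so members' replicates typically lay closer together than those of other genes. The EV RV replicates differed by more than the groups did for 41 of the 77. The 59, 4, 63 and 41 were counted for members only, without a share over all genes. Without EV RV replicate 1, 63 of 79 members (79.7%) were positive, where 50.5% of all genes were, and the median was 0.09. Without Tox RV replicate 1 the median also fell, to 0.12, with 68 of 79 members and 49.2% of all genes positive. Without Tox RV replicate 2 the median was 0.21, with 75 of 79 members and 47.6% of all genes positive. EV RV replicate 2 alone lay below both Tox RV libraries for 55 of 79 members (69.6%) and for 36.9% of all genes. Without EV RV replicate 2, 70 members were positive with a median of 0.24, where 51.4% of all genes were positive, and EV RV replicate 1 was the lone control, assumed to vary like the other libraries. In that fit 4 members (5.06%) passed an adjusted p of 0.05, close to the background of 4.16% of all genes. Of these, 3 were higher (*Rps27*, *Rpl30* and *Rpl5*) and 1 was lower. At an unadjusted p below 0.05 there were 33 members (41.8%), where 29.7% of all genes passed.

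**Figure D3:**
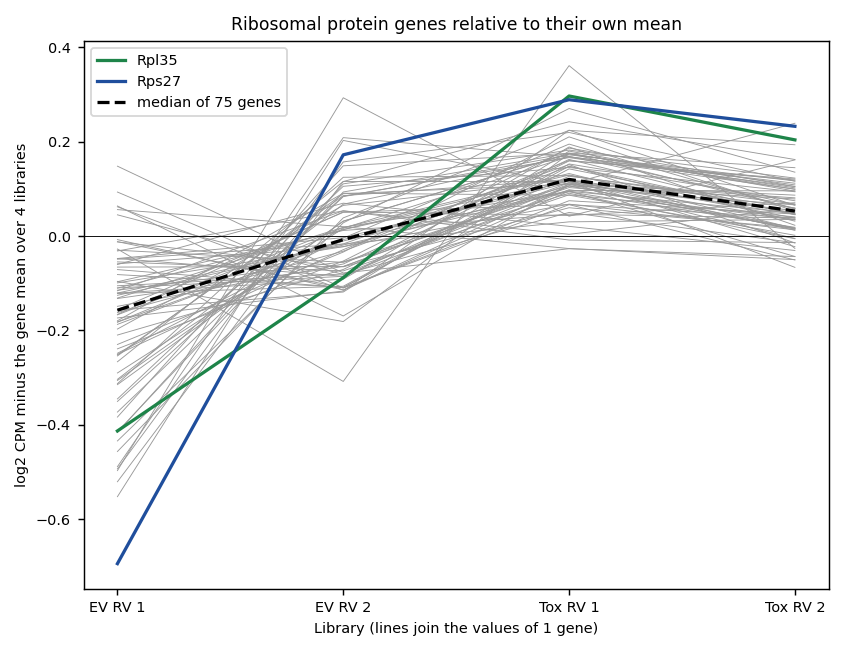
log2 CPM of 75 members (*Rpl39l* and *Rps4l* not drawn) minus each gene's mean over the 4 libraries, with 1 line per gene and the median dashed. The median is lowest in EV RV replicate 1 and highest in Tox RV replicate 1, and *Rps27* and *Rpl35* follow it with a wider swing.

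In the large subunit, the largest positive difference was in *Rpl35*, whose protein sits beside the exit of the peptide tunnel and whose long tract is shown above. *Rpl35* was at 441 and 552 CPM in EV RV against 721 and 676 in Tox RV, so that the groups did not overlap. Its log2 fold change was 0.49 (SE 0.18, edgeR adjusted p = 0.897), and it lay between 0.33 and 0.67 with any 1 library left out. On mouse chromosome 2 its gene overlaps *Arpc5l* and *Wdr38* on the other strand, and use of strand in counting was not given in the sources used here. In all, 17 of 79 members overlap a tested gene on the opposite strand, where reads of the partners cannot be told apart without strand.

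*Rpl5* and *Rpl11* form the 5S particle with 5S ribosomal RNA, and when free they bind Mdm2 and release p53. *Rpl5* was at 1567 and 2209 CPM in EV RV against 2512 and 2460 in Tox RV, without overlap, with a log2 fold change of 0.40 (SE 0.21, edgeR adjusted p = 0.897). *Rpl11* was at 819 and 880 against 989 and 881 CPM, with a log2 fold change of 0.14 (SE 0.16), and the upper EV RV library and the lower Tox RV library almost touched. Both had EV RV replicate 1 as the lowest library, and without it their log2 fold changes were 0.16 and 0.08.

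*Rpl23*, of the face that meets the small subunit, was at 970 and 1336 CPM in EV RV against 1581 and 1439 in Tox RV, a log2 fold change of 0.39 (SE 0.21). *Rpl30* was at 362 and 562 against 614 and 580.5 CPM, a log2 fold change of 0.37 (SE 0.24). For both the groups did not overlap, and the low EV RV replicate 1 made up much of the difference, since without it the values were 0.17 and 0.08. A copy at another locus, *Gm12191*, held 20.4% as many counts as *Rpl30* and had the same log2 fold change of 0.37.

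The P stalk, which recruits the elongation factors, is formed by *Rplp0*, *Rplp1* and *Rplp2*. *Rplp0* was at 3083 and 3137 CPM in EV RV against 3571 and 3503 in Tox RV, a log2 fold change of 0.19 (SE 0.14) with replicates far closer than the groups, and it kept 0.17 without EV RV replicate 1. *Rplp1* was at 890 and 944 against 904 and 901 CPM, a log2 fold change of -0.02 (SE 0.15) that was 0.10 with library totals, and its Tox RV libraries lay inside the EV RV range. *Rplp2* was at 647 and 718 against 756 and 718 CPM, a log2 fold change of 0.11 (SE 0.16). The 3 stalk genes thus did not share a clear direction, and none passed the test.

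*Rpl4*, *Rpl17* and *Rpl39* line the tunnel through which the new peptide leaves. *Rpl17* was at 1407 and 1464 CPM in EV RV against 1854 and 1661 in Tox RV, with a log2 fold change of 0.29 (SE 0.16) that kept 0.26 without EV RV replicate 1. *Rpl4* was at 2281 and 2391 against 2698 and 2656 CPM, a log2 fold change of 0.20 (SE 0.15). *Rpl39* was at 387 and 504 against 504 and 477 CPM, with overlapping groups, and its log2 fold change of 0.14 (SE 0.19) became -0.05 without EV RV replicate 1. *Rpl3*, which helps shape the peptidyl transferase centre, was at 2088 and 2177 against 2428 and 2367 CPM, a log2 fold change of 0.17 (SE 0.15), again without overlap.

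The abundant members *Rpl41*, *Rpl23a* and *Rpl32* were also compared on the CPM scale. *Rpl41* was at 1242 and 1337 CPM in EV RV against 1447 and 1402 in Tox RV, a log2 fold change of 0.14 (SE 0.15). *Rpl23a*, at the tunnel exit, was at 1215 and 1228 against 1470 and 1392 CPM, a log2 fold change of 0.23 (SE 0.15). The groups did not overlap for either of these. *Rpl32* was at 1018 and 1316 against 1412 and 1316 CPM, where the upper EV RV library and the lower Tox RV library were equal at this precision, so the groups were not separated. *Rpl22*, near the low end by TPM, was at 389 and 425 against 482 and 449 CPM, a log2 fold change of 0.19 (SE 0.16), without overlap.

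**Figure D4:**
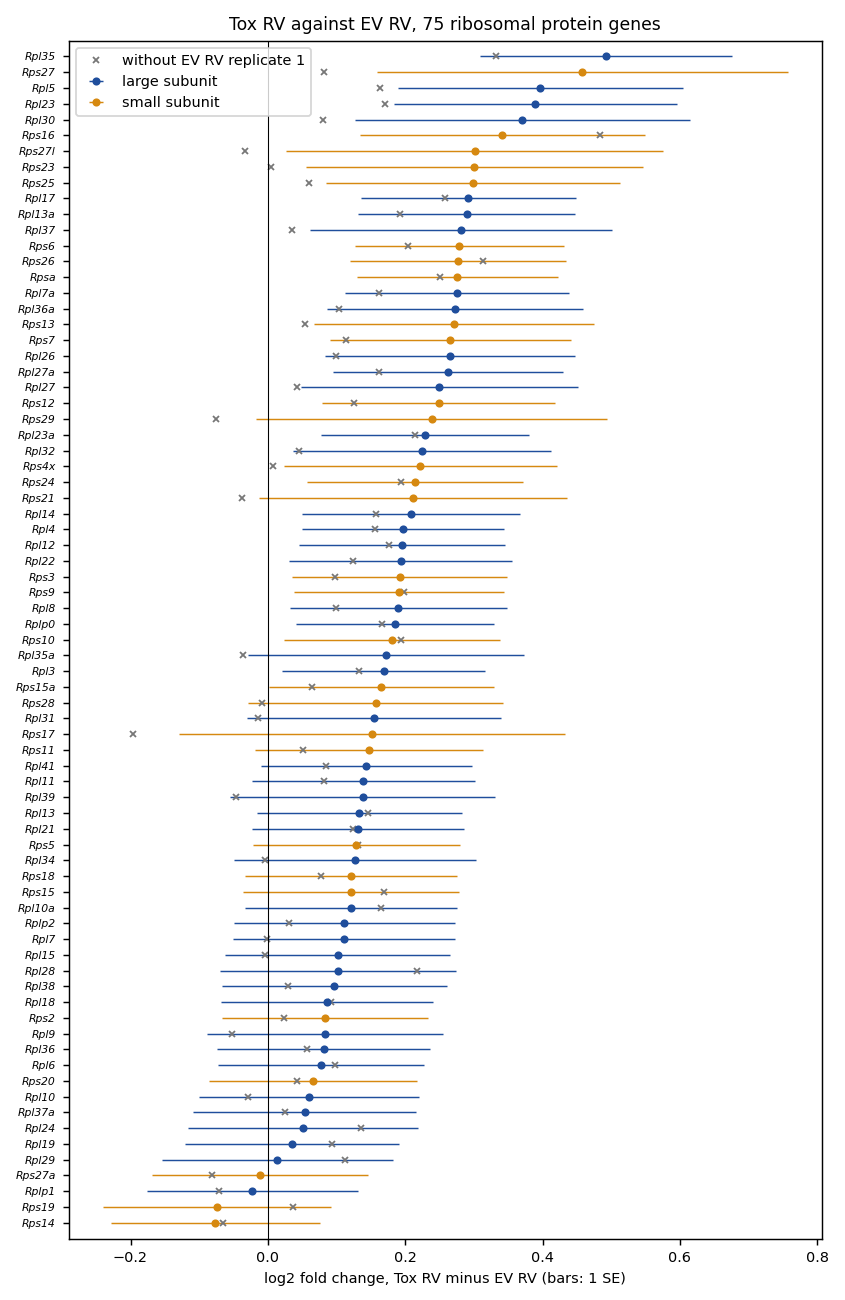
log2 fold change of Tox RV over EV RV for 75 members, ordered by value, with bars of 1 SE, large subunit in blue and small subunit in orange, and grey crosses for the value without EV RV replicate 1. Of the points, 71 lie between 0 and 0.5, and the crosses lie closer to 0 than the points for 58 of 75 genes.

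In the small subunit, *Rpsa*, also known as the laminin receptor, was at 2953 and 3033 CPM in EV RV against 3731 and 3517 in Tox RV. Its log2 fold change was 0.28 (SE 0.15, edgeR adjusted p = 0.897), with replicates much closer than the groups, and was 0.25 without EV RV replicate 1. *Rps6*, whose protein is phosphorylated by S6 kinase downstream of mTORC1, was at 1947 and 2144 against 2514 and 2448 CPM, a log2 fold change of 0.28 (SE 0.15) and 0.20 without that library. Both had EV RV and Tox RV values that did not overlap, and neither passed the test after adjustment.

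*Rps27* had the second largest positive difference, and its counts were shared with a copy. It was at 173 and 315 CPM in EV RV against 342 and 329 in Tox RV, a log2 fold change of 0.46 (SE 0.30, edgeR adjusted p = 0.897). *Rps27rt*, a gene elsewhere in the genome whose transcript was 100% identical over 341 aligned bases, held 165% as many counts as *Rps27*, at 560 and 470 against 512 and 455 CPM. The sum of the 2 genes was 733 and 786 CPM in EV RV against 853 and 784 in Tox RV, so the groups overlapped, and with such copies added to their members the log2 fold change of *Rps27* was 0.11. *Rps27* took 23.6% of the sum in EV RV replicate 1 and 40.1% to 41.9% in the other libraries. Its value as a single gene is therefore uncertain. In all, 13 copies matched 11 members, and *Rpl37rt*, with 22.0% as many counts as *Rpl37*, was the next largest.

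**Figure D5:**
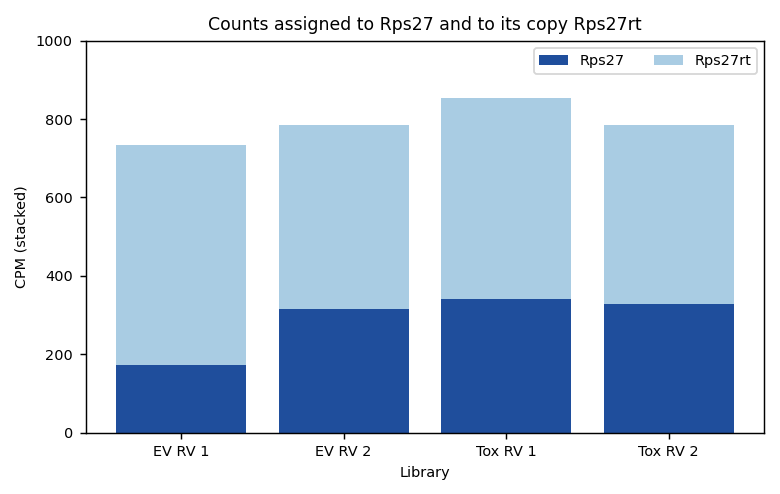
CPM of *Rps27* (dark) and of its near-identical copy *Rps27rt* (light), stacked, in each library. The stacked height runs from 733 to 853 CPM, while the dark part is 173 CPM in EV RV replicate 1 and 315 to 342 CPM in the others.

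*Rps27a*, made as a fusion with ubiquitin, was at 851 and 931 CPM in EV RV against 900 and 868 in Tox RV, a log2 fold change of -0.01 (SE 0.16). *Rps14* was at 1037 and 1011 against 979 and 963 CPM, a log2 fold change of -0.08 (SE 0.15), the only member with both Tox RV values below both EV RV values. *Rps19*, the gene most often mutated in Diamond-Blackfan anaemia, was at 1003 and 858 against 889 and 878 CPM, a log2 fold change of -0.07 (SE 0.17) that became 0.04 without EV RV replicate 1. Under scaling by library totals, the values of *Rps14*, *Rps19* and *Rps27a* were above 0, at 0.05, 0.05 and 0.11, with a shift of the median of all genes to 0.12. None of these 3 was separable from no difference.

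The proteins of the 40S head had 12 of 14 positive values with a median of 0.15, and the other small-subunit proteins 16 of 18 with a median of 0.22. *Rps12*, the most abundant member of the head by TPM, was at 1385 and 1640 CPM in EV RV against 1883 and 1711 in Tox RV, a log2 fold change of 0.25 (SE 0.17). *Rps18*, next in the head by TPM, was at 1097 and 1157 against 1266 and 1188 CPM, a log2 fold change of 0.12 (SE 0.15). *Rps15a* was at 884 and 1013 against 1097 and 1030 CPM, a log2 fold change of 0.17 (SE 0.16). All 3 showed non-overlapping groups with EV RV replicate 1 lowest.

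Of the X-linked members, *Rpl36a* was at 368 and 468 CPM in EV RV against 517 and 493 in Tox RV, a log2 fold change of 0.27 (SE 0.19) without overlap. *Rps4x* was at 1337 and 1828 against 1879 and 1813 CPM, a log2 fold change of 0.22 (SE 0.20) that was 0.01 without EV RV replicate 1. *Rpl10*, which joins the large subunit late in assembly, was at 963 and 1084 against 1047 and 1087 CPM, a log2 fold change of 0.06 (SE 0.16) with overlapping groups. With *Rpl39*, 4 of 4 X-linked members were positive with all libraries, and 2 of 4 without EV RV replicate 1.

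Among the restricted or stress-linked paralogs, *Rps27l*, a p53 target, was the only one present at more than a few CPM. It was at 52.1 and 87.9 CPM in EV RV against 82.4 and 90.1 in Tox RV, with a log2 fold change of 0.30 (SE 0.27) that became -0.03 without EV RV replicate 1. *Rpl39l* was at 2.25 and 0.32 against 1.71 and 0.62 CPM, and *Rps4l* at 1.23 and 1.00 against 1.71 and 0.46. Their log2 fold changes of -0.10 (SE 0.94) and -0.02 (SE 0.63) lay far inside their errors. The 19 members linked to Diamond-Blackfan anaemia, a failure of red cell production, had 18 positive values with a median of 0.18, which is close to the family's 0.17, and 13 positive values without EV RV replicate 1.

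Features that the rule did not use were set beside the differences as a description. Of the members, 29 (36.7%) host a snoRNA in GENCODE, compared with 1.43% of 13408 other tested genes with a single position. The snoRNA hosts had a median log2 fold change of 0.20 with 28 of 29 positive, and the other 50 members a median of 0.15 with 44 positive. *Rpl4* hosts 5 and *Rpl13a* hosts 4. Both Tox RV values exceeded both EV RV values in 23 of the 29 hosts and in 25 of the 50 others, where 18.6% of all genes had that order. Hosts and others share the same libraries, and the difference between them was not tested. Members with a pyrimidine run of at least 8 bases had a median of 0.17 (45 of 47 positive) and those without it 0.22 (11 of 11 positive).

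The GC content of the members' GENCODE transcripts moved with the difference between the EV RV replicates. These transcripts did not always have the length listed with the counts, so the GC values are approximate. *Rps20*, which has the lowest GC content at 41.3%, had 3706 bases in GENCODE against a listed 502, and *Rpl35* had 946 against 452. Across the 77 members, which share libraries and are not independent, Spearman's rho of GC content was 0.39 with the log2 difference of EV RV replicate 1 over replicate 2 (Pearson's r 0.32), and 0.02 with that of the Tox RV replicates (Pearson's r 0.06). With the log2 fold change of Tox RV over EV RV, rho was -0.35 (Pearson's r -0.26). Over all tested genes with a GC value, the 3 rho values were 0.18, 0.10 and -0.08 in the same order. In 3 bins of GC content, the median log2 fold change was 0.19 in the lowest (41.3% to 49.3% GC, 24 of 25 positive), 0.22 in the middle (26 of 26 positive) and 0.12 in the highest (53.1% to 60.8% GC, 22 of 26 positive). The part of GC content in the difference between the groups was not tested.

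The ribosomal protein genes outside the symbol rule showed values like those of the members. All 7 that were listed had a positive log2 fold change, from 0.17 to 0.30 with a median of 0.20, and 0 passed an unadjusted p of 0.05. Among all genes 50.4% were positive, and 1.07% were higher and 2.55% lower at that threshold. *Fau*, a ubiquitin-like fusion to Rps30, was at 825 and 780 CPM in EV RV against 1053 and 924 in Tox RV, a log2 fold change of 0.30 (SE 0.16). *Gnb2l1*, the scaffold Rack1 of the 40S head, was at 1968 and 2096 against 2330 and 2316 CPM, a log2 fold change of 0.19 (SE 0.15). *Rps3a1* was at 1449 and 1688 against 1763 and 1777 CPM, a log2 fold change of 0.17 (SE 0.16). For these 3 the groups did not overlap. Of the 7 genes, both Tox RV values exceeded both EV RV values for 4 and the groups overlapped for 3, where 18.6% of all genes had both Tox RV values above. Without EV RV replicate 1, 5 of the 7 were positive with a median of 0.03.

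Other mRNAs with a TOP tract, for translation factors and a few further proteins, had 11 of 15 positive values, where 50.4% of all genes were positive. Their median was 0.20, with a range of -0.83 to 0.36. At an unadjusted p below 0.05 there were 0 of 15 in either direction, where 1.07% of all genes were higher and 2.55% were lower. *Eef1a1*, which brings aminoacyl-tRNA to the ribosome, was at 13653 and 14322 CPM in EV RV against 16187 and 15938 in Tox RV, a log2 fold change of 0.20 (SE 0.14) without overlap. *Eif4b* was at 558 and 603 against 703 and 649 CPM, a log2 fold change of 0.22 (SE 0.16). *Eef2*, the translocase, was at 4911 and 4235 against 5197 and 4762 CPM, with overlapping groups and a log2 fold change of 0.12 (SE 0.16). The lowest value was that of *Pabpc1*, the poly(A)-binding protein, at 1405 and 603 CPM in EV RV against 621 and 511 in Tox RV, a log2 fold change of -0.83 (SE 0.40) that was -0.10 without EV RV replicate 1. *Eif3f*, a subunit of the initiation factor eIF3, was at 368 and 231 against 246 and 222 CPM, a log2 fold change of -0.36 (SE 0.26) that was 0.01 without that library. Both had overlapping groups with EV RV replicate 1 highest. Without EV RV replicate 1 the list had 10 of 15 positive values and a median of 0.16, where 50.5% of all genes were positive.

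The genes that control TOP mRNAs and ribosome production lay mostly on the other side of 0. Of 12, 9 had a negative value and 3 a positive one, where 50.4% of all genes were positive. The median was -0.15. At an unadjusted p below 0.05 there were 2, both lower in Tox RV, where 2.55% of all genes were lower at that threshold. *Eif4ebp1*, an mTORC1 target that holds back cap-dependent translation, was at 34.9 and 33.9 CPM in EV RV against 23.2 and 22.8 in Tox RV, a log2 fold change of -0.58 (SE 0.16, edgeR adjusted p = 0.897). *Myc*, a transcription factor known to drive ribosome production, was at 226 and 166 against 147 and 117 CPM, a log2 fold change of -0.57 (SE 0.23, edgeR adjusted p = 0.897). *Larp1* was at 673 and 594 against 531 and 446 CPM, a log2 fold change of -0.37 (SE 0.18). In all 3 the Tox RV values were below both EV RV values, as for 5 of the 12, where 17.4% of all genes had that order. The groups overlapped for 6, and only *Rps6kb2* had both Tox RV values above, with a log2 fold change of 0.36 (SE 0.21). *Eif4ebp2*, the lowest at -1.07 (SE 0.49), had overlapping groups, at 62.3 and 21.1 CPM in EV RV against 21.9 and 17.6 in Tox RV. Without EV RV replicate 1 the median of the list was -0.06, with 3 of 12 positive. The proteins that escort single ribosomal proteins to the nucleus or to the ribosome, such as *Heatr3* for Rpl5 and *Tsr2* for Rps26, had 8 of 9 positive values with a median of 0.21. Without EV RV replicate 1 they had 5 of 9 with a median of 0.01. Among all genes 50.4% were positive with all libraries and 50.5% without that library. *Nap1l1* was counted both among these and among the other TOP mRNAs.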

How the data were processed

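RNA-seq of sorted GFP+ CD4 T cells was analysed in 2 EV RV and 2 Tox RV libraries, grouped by their labels. The authors checked reads with FastQC, aligned them to mm10 transcripts with bowtie1 and estimated gene levels with RSEM, 1 library per table; versions and use of strand were not given in the sources used here. The deposited expected counts are RSEM's unnormalised estimates, which split reads among near-identical transcripts. The deposited TPM are RSEM's values, computed with an effective length 149 bases below the listed length. A deposited series table of normalised values and the FPKM were not used.

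Expected counts were rounded, filtered with filterByExpr (minimum count 10), scaled by TMM and tested over 14143 genes with edgeR 4.0.16 (quasi-likelihood test, no block, Benjamini-Hochberg adjustment, R 4.3.3). SE is the log2 fold change divided by the square root of F. The replicates are separate mice per the study. Replicate log2 differences used a prior count of 2. Alternatives were DESeq2 1.42.0, limma 3.58.1 on TPM, other scalings and filters, pseudogene counts added and each library left out. The tests were checked on simulated data. Copies were sought with BLAST 2.17.0 (at least 95% identity, 200 bases and 50% of the transcript, at another locus). Transcripts and gene positions came from GENCODE M21 on GRCm38. Intervals from counts were not formed because the libraries, not the reads, set the error.

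The members and gene lists were chosen with earlier results of these data known. Named genes were members with p below 0.05, the 5 largest increases and decreases, the 5 highest and lowest by TPM, and members with set roles. Some genes are not reported here one by one and are left out of plots of single genes, but stay in the counts and medians. *Pabpc1*, *Eif3f*, *Rps27rt*, *Rpl37rt* and *Gm12191*, and the list genes given as examples, were named after their values were seen.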

Additional observations from a re-analysis of the deposited data

How the results depend on the processing

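Over 15 alternatives, the number of members at an adjusted p below 0.05 was 0 except without EV RV replicate 2, and over the leave-outs it ranged from 0 to 4. The 4 are 5.06% of the members, where 4.16% of all genes passed in the same fit. The members with a positive value ranged from 63 to 75 over the leave-outs and from 65 to 78 over the others. The number at an unadjusted p below 0.05 was 2 with no low-count filter, 2 under the replicate block, 0 with limma on log2(TPM + 1) and 0 with log2(TPM + 0.1), and 0 to 33 over the leave-outs. The 33 came without EV RV replicate 2, where 29.7% of all genes passed, and without EV RV replicate 1 it was 3 members and 7.49% of all genes. The median log2 fold change of the members was 0.28 with library totals, where the median of all genes was 0.12. With limma the members' median was 0.10 at either pseudocount. The median of all genes was then -0.0487 with log2(TPM + 1) and -0.0678 with log2(TPM + 0.1), so it shifted down as well. Over the leave-outs the members' median was 0.0931 to 0.24, where that of all genes was -0.0196 to 0.0190. The cause of these shifts was not tested. The replicate block was not the main fit because equal numbers are not known to mark shared mice. The replicate differences of the 2 groups correlated at 0.30 over all genes and 0.58 over members, which 2 pairs cannot settle. The 0.58 includes *Rpl39l* and *Rps4l*, both near the limit of what is counted. For *Rpl39l*, replicate 1 exceeded replicate 2 by a log2 of 2.71 with the control virus and 1.42 with Tox RV. For *Rps4l* these values were 0.29 and 1.81. The other 77 members had median absolute replicate differences of 0.18 and 0.07, in the same order. The correlation without these 2 genes was not computed, so the 0.58 may not describe the family as a set. With the block, all genes called at an adjusted p below 0.05 went from 0 to 16, none of them a member. Adding copies to members was chosen after seeing the data.

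Of 31 named genes, 22 kept their sign in all alternatives. With library totals the log2 fold change was 0.0823 for *Rpl39l*, 0.0964 for *Rplp1*, 0.0466 for *Rps14*, 0.0545 for *Rps19*, 0.11 for *Rps27a* and 0.0944 for *Rps4l*. With limma on log2(TPM + 1) and log2(TPM + 0.1), it was -0.0207 in both for *Rpl10*, and 0.0249 and 0.17 for *Rpl39l*. It was 0.18 for *Rpl39l* with the replicate block and 0.0026 for *Rps27a* without the low-count filter. Over the leave-outs, values ranged from -0.0292 to 0.15 for *Rpl10*, -0.0466 to 0.35 for *Rpl39*, -1.03 to 1.88 for *Rpl39l*, -0.0713 to 0.0263 for *Rplp1*, -0.18 to 0.0364 for *Rps19*, -0.0811 to 0.0613 for *Rps27a*, -0.0337 to 0.73 for *Rps27l* and -1.27 to 0.62 for *Rps4l*. With 2 libraries per group, the SE of a member's log2 fold change was at least 0.14, and the difference was within 2 SE of 0 for 78 of 79 members.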
